A study of Mus musculus with 2 samples.

Results

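Mitochondria-dominated barcodes are droplets in which genes whose symbols start with mt- took at least 50% of all unique molecular identifiers (UMIs, tags that count single RNA molecules). They numbered 825 of the 10715 barcodes deposited for GL261 cells. Of the adherent barcodes, 347 of 5764 were of this kind, 6.02% (exact binomial 95% interval 5.42% to 6.67%). Of the neurosphere barcodes, 478 of 4951 were, 9.65% (8.85% to 10.5%). They were chosen by a measured value, so their high mitochondrial share is a description and not a result, and everything below concerns genes that do not start with mt- unless stated. Each library's barcodes under 10% mitochondrial UMIs, 5115 adherent and 4384 neurosphere, served as the comparison barcodes.

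GL261 is an established mouse glioma line derived from the C57BL/6 strain. The adherent library came from trypsinized flask cultures in serum-containing medium. The neurosphere library came from aggregates grown for 12 days with EGF and FGF (20 ng/ml each) and B-27, then broken up by pipetting. The paper describes these additions as supplements to the culture medium and names no removal of serum. Both cell suspensions were frozen in medium with DMSO and shipped on dry ice before 10x Genomics single cell 3′ libraries were made. With 1 library per culture, no test was possible, intervals cover counting error only, and culture cannot be told apart from library, dissociation or handling.

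Mitochondria carry their own small genome, whose messenger RNAs stay inside the organelle's membranes. Messenger RNAs made from nuclear genes mostly leave the nucleus for the cytoplasm, while some long noncoding RNAs, Malat1 and Neat1 among them, stay in the nucleus. A droplet with a high mitochondrial share is usually read in scRNA-Seq as a damaged or dying cell that has lost cytoplasmic RNA.

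The study's filter, applied to genes other than mitochondrial and ribosomal ones, kept 0 of the 347 adherent and 0 of the 478 neurosphere mitochondria-dominated barcodes. They made up 48.7% of the 713 adherent and 70.8% of the 675 neurosphere barcodes that the filter left out. As applied here, the filter left out slightly more barcodes in each library than the cell numbers in the paper imply. In the adherent library the mitochondrial share was spread broadly, with a median of 74.1% and quartiles of 63.5% and 81.9% in the chosen barcodes. In the neurosphere library it was concentrated near the top, with a median of 90.6% and quartiles of 86.2% and 93.4%. The lowest share inside the limit was 50.05% in adherent and 51.1% in neurosphere barcodes, and the highest outside it was 49.85% and 45.4%. Between 10% and 50% lay 302 adherent but 89 neurosphere barcodes. Of the barcode sequences, 12 occurred in both libraries, and none of these was mitochondria-dominated in both.

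**Figure D1:**
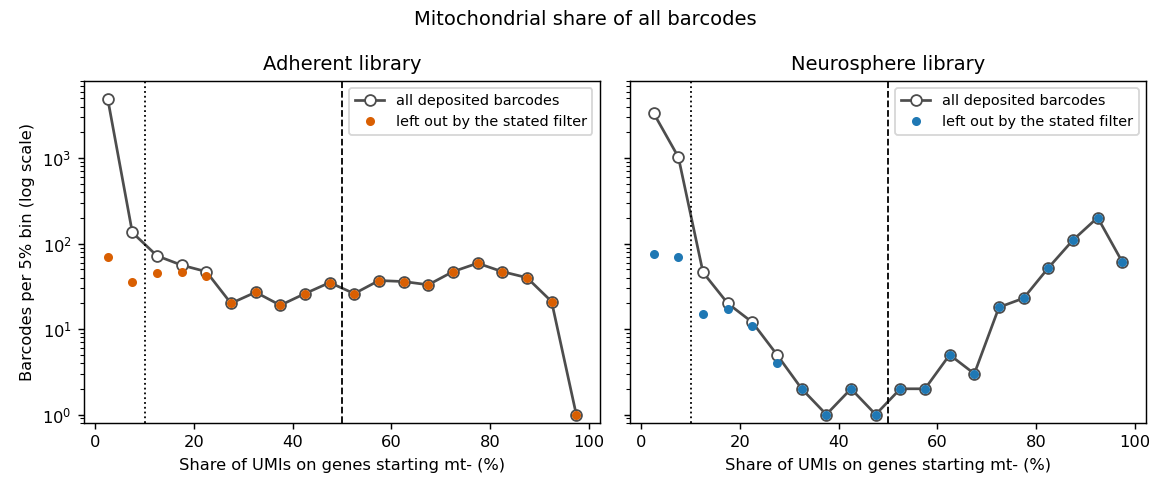
Number of barcodes per 5% bin of mitochondrial share (log scale) in the adherent and neurosphere libraries, for all deposited barcodes (open circles) and those left out by the stated filter (filled circles); bins with 0 barcodes have no point, and the dotted and dashed lines mark 10% and 50%. Adherent barcodes filled the range between the lines, while only 89 neurosphere barcodes lay there.

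The sizes of the chosen barcodes are a description, since the limit acts on the same counts: no deposited barcode had under 500 UMIs, so a share of 50% also sets a minimum of mitochondrial UMIs. The median mitochondrial count was 491 UMIs in adherent mitochondria-dominated barcodes against 253 UMIs in comparison barcodes, and 819 against 662 UMIs in neurosphere ones. The median count on all other genes was 181 against 11750 UMIs in the adherent library, 64.9 times fewer. In the neurosphere library it was 92 against 15579 UMIs, 169 times fewer. The median mitochondria-dominated barcode had UMIs of 152 genes in the adherent and 86 genes in the neurosphere library, against 3104 and 4355 genes in comparison barcodes. Only 149 adherent and 70 neurosphere mitochondria-dominated barcodes reached 200 UMIs outside the mitochondrial genes. Summed, the remaining RNA was 69850 UMIs on 8580 genes in the adherent and 60305 UMIs on 8668 genes in the neurosphere barcodes, which sets the precision of all values below.

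Of the non-mitochondrial genes with at least 25 UMIs in the chosen barcodes, 3 of 367 adherent genes and 0 of 340 neurosphere genes had more UMIs per barcode there than in comparison barcodes. The 3 genes were Gm42418, Lars2 and Gm15564, named after their values were seen. Gm42418, an annotated noncoding gene, had a mean of 4.95 UMIs per mitochondria-dominated and 3.47 UMIs per comparison barcode in the adherent library, and 1.18 against 2.92 UMIs in the neurosphere library. Lars2, which encodes the mitochondrial leucyl-tRNA synthetase, had 1.02 against 0.239 UMIs per barcode in adherent and 0.161 against 0.291 UMIs in neurosphere barcodes. For Gm15564 the means were 0.107 and 0.0260 UMIs in the adherent library. For scale, Actb, the gene of cytoplasmic actin, went from 44.5 UMIs per adherent comparison barcode to 0.493 UMIs, a 90.3-fold drop. Malat1 stood in between, with 27.2 and 1.45 UMIs per adherent barcode and 41.4 and 0.870 UMIs per neurosphere barcode.

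**Figure D2:**
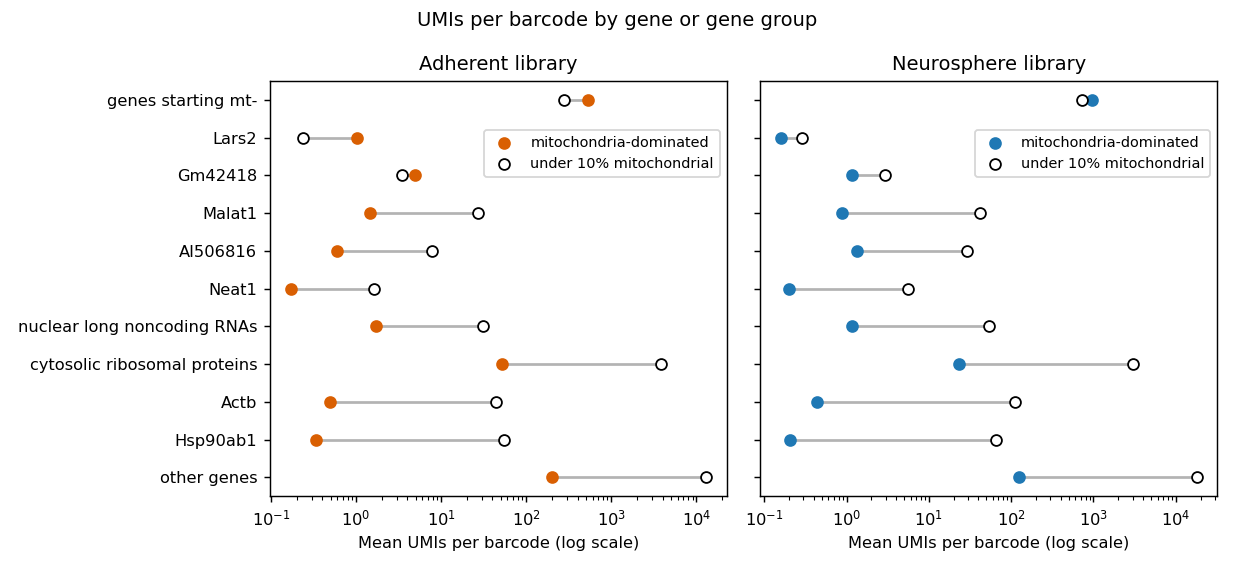
Mean UMIs per barcode (log scale) of genes and gene groups in mitochondria-dominated barcodes (filled) and in comparison barcodes under 10% mitochondrial UMIs (open). Mitochondrial genes lay above the comparison barcodes in both libraries, Gm42418 and Lars2 did so in the adherent library only, and the other rows shown lay below.

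Gm42418 lies on chromosome 17 from 39846958 to 39848788 (GRCm38, plus strand) and has 1 exon, which is opposite the gene CT010467.1, annotated as ribosomal RNA. Its transcript shared an unbroken run of 1639 of 1831 bases with the other strand of CT010467.1, from the first base on. Strands are those of the annotation, and which strand is that of the ribosomal RNA itself was not examined. A search of 55338 genes for exact words of 20 bases from the annotated ribosomal RNAs (CT010467.1, mt-Rnr1 and mt-Rnr2, both strands) found 8 genes with a match, and 2 with a run of at least 100 bases, Gm42418 and AY036118. No such word was found in annotated transcripts of Lars2, Gm15564, Malat1, Neat1 or AI506816, and introns were not searched. The first 200 bases of Gm42418 are printed because this RNA took the largest non-mitochondrial share in adherent mitochondria-dominated barcodes. Capitals mark the bases that overlap AY036118, annotated on the minus strand, at chr17:39846958-39847157.
Gm42418: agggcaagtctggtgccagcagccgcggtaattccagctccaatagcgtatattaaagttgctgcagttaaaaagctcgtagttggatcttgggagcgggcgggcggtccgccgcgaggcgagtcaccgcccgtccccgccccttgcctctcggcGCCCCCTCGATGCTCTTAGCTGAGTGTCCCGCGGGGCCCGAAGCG

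From here on, a gene's level is its share of the UMIs outside the mitochondrial genes, as CPM (counts per 1000000 of those UMIs), and a log2 ratio sets mitochondria-dominated over comparison barcodes of the same library. These levels have no correction for gene length. Gm42418 was at 24567 CPM in adherent mitochondria-dominated and 267 CPM in comparison barcodes, a log2 ratio of 6.52 (95% counting interval 6.45 to 6.60). Neurosphere values were 9369 and 163 CPM, a log2 ratio of 5.85 (5.72 to 5.97). It was found in 93.4% of the adherent and 54.2% of the neurosphere mitochondria-dominated barcodes, at their median depths of 181 and 92 UMIs. Gm42418, AY036118 and Gm26917, all on chromosome 17 at or beside CT010467.1, together took 2.73% of the remaining adherent UMIs and 1.03% of the remaining neurosphere UMIs, against 0.0346% and 0.0230% in comparison barcodes.

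A gene was counted where its pooled share gave at least 25 expected UMIs in the summed mitochondria-dominated barcodes, which held for 406 adherent and 370 neurosphere genes. The comparison barcodes supply nearly all pooled UMIs, so that minimum passes over genes that are rare in comparison barcodes, Gm42418 among them. By this minimum, 5 adherent genes (1.23%) were over 2-fold higher and 14 (3.45%) over 2-fold lower, and 2 neurosphere genes (0.541%) were over 2-fold higher and 11 (2.97%) lower. With the minimum set on the mean of both shares, an alternative added after seeing the data, 23 of 388 adherent genes (5.93%) were over 2-fold higher and 6 (1.55%) lower. For neurosphere barcodes it gave 10 of 351 genes (2.85%) higher and 5 (1.42%) lower. Of the higher genes, 18 adherent and 8 neurosphere genes passed only through their share in the mitochondria-dominated barcodes, so the added counts are a description and support nothing. Most genes lay closer: the median log2 ratio of the counted genes was -0.34 in the adherent and -0.18 in the neurosphere library, with 354 of 406 and 260 of 370 genes below 0.

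Nuclear long noncoding RNAs took a larger share in the mitochondria-dominated barcodes of both libraries, by an amount that depended on the barcodes compared. The 13 listed genes took 0.845% of the remaining adherent UMIs against 0.240% in comparison barcodes, a log2 ratio of 1.82 (1.70 to 1.93). In the neurosphere library the shares were 0.929% and 0.296%, a log2 ratio of 1.65 (1.52 to 1.77). Only 5 of the 13 genes had a UMI in adherent mitochondria-dominated barcodes, and Malat1 gave 504 of the 590 UMIs there. Against the shallow comparison barcodes that the filter had left out, the group's log2 ratios were 0.34 and 0.87, with a limit of 80% they were 0.64 and 1.27, and with equal weight per barcode 1.31 and 0.81. Malat1, a noncoding RNA of nuclear speckles, was at 7215 and 2091 CPM in the adherent library, 3.45-fold higher, and at 6898 and 2308 CPM in the neurosphere library, 2.99-fold higher. Neat1, the scaffold RNA of paraspeckles, was at 845 and 124 CPM in adherent and 1575 and 313 CPM in neurosphere barcodes, log2 ratios of 2.77 and 2.33. Pvt1 had 21 and 28 UMIs, log2 ratios of 1.33 and 1.39. Malat1, Neat1 and Pvt1 lay above comparison barcodes in both libraries, although fewer copies of each were found per barcode. Malat1 was the only counted member of the list in either library. Neat1 met only the added minimum, so its values are a description.

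Before any thinning, 47.8% of adherent and 31.2% of neurosphere mitochondria-dominated barcodes had a UMI of Malat1, against 97.3% and 98.5% of the far deeper comparison barcodes. With each barcode thinned to 200 non-mitochondrial UMIs, the share was 59.1% (exact interval 50.7% to 67.0%, n = 149 barcodes) against 32.3% in the adherent library. It was 58.6% (46.2% to 70.2%, n = 70 barcodes) against 35.6% in the neurosphere library. Thinning left out 198 adherent and 408 neurosphere mitochondria-dominated barcodes as too shallow. No barcodes of a type known to lack Malat1 were available to gauge the share that free RNA gives. The comparison barcodes that the filter had left out, 106 adherent and 144 neurosphere, stood at 38.7% and 38.9%. Thinning to 50 UMIs kept 337 adherent and 394 neurosphere mitochondria-dominated barcodes, with Malat1 in 24.0% and 18.0% of them. At that depth it was in 11.3% and 12.4% of comparison barcodes and in 18.9% and 14.6% of the shallow ones, whose intervals overlap those of the mitochondria-dominated barcodes.

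AI506816, a noncoding gene on chromosome 5 from 23698296 to 23712667, was at 2978 and 608 CPM in the adherent library. In the neurosphere library it was at 10497 and 1642 CPM, a log2 ratio of 2.68 (2.56 to 2.79) and the most abundant non-mitochondrial RNA of the neurosphere mitochondria-dominated barcodes with 633 UMIs. It was spread over 58.0% of them, with no more than 25 UMIs from 1 barcode. Gm47283, a gene annotated on chromosome Y from 90784738 to 90816464, was at 3751 and 456 CPM in the adherent and 4394 and 341 CPM in the neurosphere library, log2 ratios of 3.04 and 3.69. Both genes were several-fold above comparison barcodes in both libraries. In the neurosphere library Gm47283 met only the added minimum, through its share in the mitochondria-dominated barcodes, so its value there is a description. All other long noncoding RNA genes, without Malat1, AI506816 and the 3 genes near CT010467.1, took 1.90% of the remaining adherent UMIs against 1.48%, a log2 ratio of 0.36 (0.29 to 0.44), and 1.91% against 1.62% in neurosphere barcodes.

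Under the added minimum, 7 of the adherent genes that passed only in this way were over 16-fold higher. They were singled out by these values, which are given as a description. Lars2 had the highest log2 ratio, 8.10 (7.93 to 8.27), at 5054 and 18.4 CPM, and 6.30 in the neurosphere library. The others were Gm42418, Gm26917, AY036118, Cmss1 (log2 ratio 4.25), Cdk8 (the Mediator kinase, 4.17) and Gphn (gephyrin, a scaffold of inhibitory synapses, 4.15). Cmss1 had nearly the same log2 ratio in the neurosphere library, 4.26, while Cdk8 and Gphn had 1.73 and 2.22 there. Together the 7 genes made up 3.54% of the remaining adherent and 1.34% of the remaining neurosphere UMIs, against 0.0529% and 0.0505% in comparison barcodes. Rbm25, an RNA-binding splicing regulator, was at 830 and 126 CPM in the adherent library, a log2 ratio of 2.72, and 0.84 in the neurosphere library. Its list of 20 splicing and nuclear speckle proteins had 0.83 (0.67 to 0.98) and 0.08 (-0.08 to 0.24), and the only counted adherent member, the splicing factor gene Srsf3, had -0.14.

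Genes with a long span took a larger summed share in the mitochondria-dominated barcodes, by an amount that depended on the barcodes compared. Genes spanning at least 100 kb in the annotation (2805 genes) took 9.71% of the remaining adherent UMIs against 4.34% in comparison barcodes, a log2 ratio of 1.16 (1.13 to 1.20). In the neurosphere library they took 10.8% against 8.48%, a log2 ratio of 0.35 (0.32 to 0.39). Among barcodes with at least 100 non-mitochondrial UMIs, the median share was 6.86% in adherent mitochondria-dominated barcodes, 4.39% in comparison barcodes and 4.89% in the shallow ones, and 9.79%, 8.62% and 9.33% in the neurosphere library. Without those of the 7 genes above that are this long, the log2 ratios were 1.13 and 0.33. The adherent log2 ratio was -0.28 for genes of 2 to 5 kb, 0.13 for 20 to 50 kb, 1.44 for 200 to 500 kb and 1.34 above that, while the neurosphere log2 ratio for 200 to 500 kb was 0.47. Genes under 2 kb had 0.33 and 0.34, but -0.20 and 0.09 without Gm42418 and AY036118, left out after their values were seen. Nkain2, which spans 1201 kb and encodes a membrane protein that interacts with the sodium pump, was at 1432 and 366 CPM in adherent and 2487 and 1409 CPM in neurosphere barcodes. Whether reads in introns were counted is not given in the sources used here, so spliced and unspliced RNA of these genes cannot be told apart.

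Length alone did not order the counted genes. Cdh18, an adhesion gene spanning 925 kb, was lower in adherent mitochondria-dominated barcodes, at 1059 and 1795 CPM, a log2 ratio of -0.76 (-1.11 to -0.43). It was slightly higher in neurosphere barcodes, at 3814 and 3164 CPM, a log2 ratio of 0.27 (0.08 to 0.46). Col11a1, a fibrillar collagen gene of 190 kb, was at 1360 and 372 CPM in the adherent library but at 1857 and 1826 CPM in the neurosphere library. Of its 95 adherent UMIs, 19 came from 1 barcode. Across the 406 counted adherent genes, span and log2 ratio had a Spearman correlation of -0.01, and across 370 neurosphere genes -0.27, with genes as points that share 1 library and are not replicates. Without ribosomal protein genes the correlations were 0.09 (327 genes) and -0.09 (293 genes). Few counted genes were long: the last of 10 equal bins by span began at 26817 bases in the adherent and 32085 bases in the neurosphere library. These correlations therefore say little about genes of at least 100 kb, most of which were not counted.

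Messenger RNAs of cytosolic ribosomal proteins remained the largest named group in both cultures. They took 25.4% of the remaining adherent UMIs against 29.8% in comparison barcodes, a log2 ratio of -0.23 (-0.25 to -0.21). Among neurosphere barcodes they took 18.4% against 17.0%, a log2 ratio of 0.11 (0.09 to 0.14). Among counted members, 69 of 79 lay below 0 in the adherent library and 49 of 77 lay above 0 in the neurosphere library, beside 354 of 406 below 0 and 110 of 370 above 0 over all counted genes. Medians of the counted members were -0.26 and 0.12, beside -0.34 and -0.18 over all counted genes. None of the counted members differed by over 2-fold in either library. Rps20, which had the most UMIs of this group in adherent mitochondria-dominated barcodes, was at 9520 and 10889 CPM in adherent and 6766 and 5169 CPM in neurosphere barcodes. Rpl13a, a large-subunit protein, was higher in both, with log2 ratios of 0.75 and 0.90, and Rps19, a small-subunit protein, had 0.29 and 0.78. Rps4x was lower in both, at -0.59 and -0.44. Barcodes differed widely: among those with at least 100 non-mitochondrial UMIs, the quartiles of the ribosomal protein share were 18.6% and 32.5% in adherent and 13.3% and 23.2% in neurosphere mitochondria-dominated barcodes. At such depth, counting error alone is part of that spread.

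**Figure D3:**
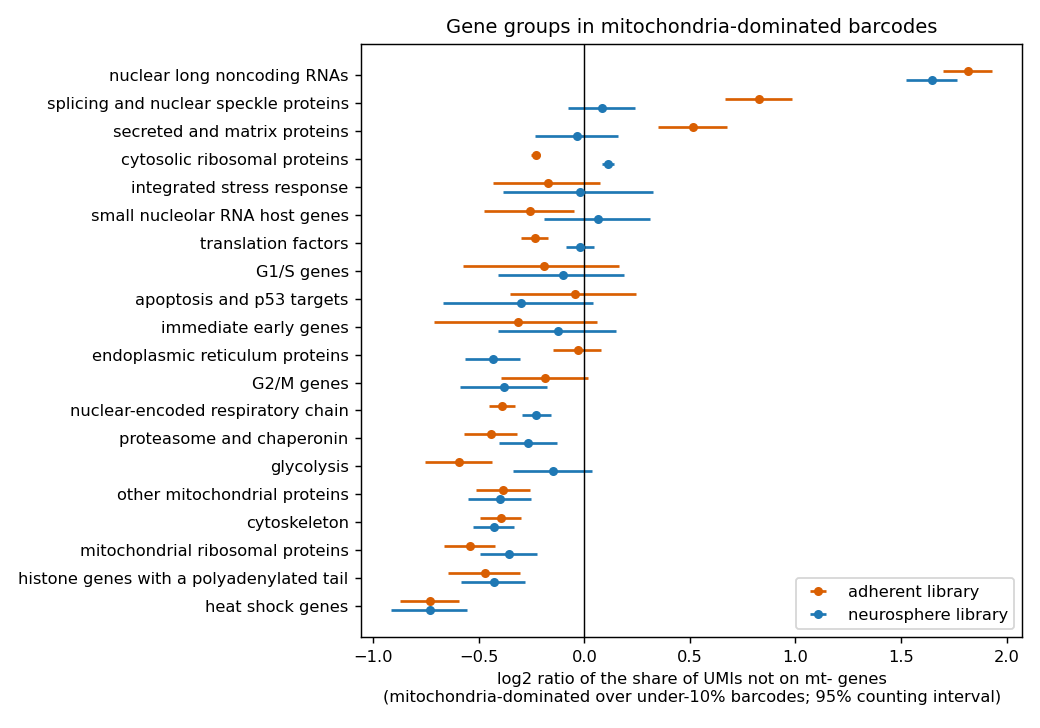
Log2 ratio of each gene group's share of non-mitochondrial UMIs, mitochondria-dominated over comparison barcodes, in the adherent (orange) and neurosphere (blue) libraries, with 95% counting intervals. Of the groups plotted, which leave out the genes near CT010467.1, the cell type markers and the culture lists, nuclear long noncoding RNAs stood highest, at 1.82 and 1.65, and heat shock genes lowest, at -0.73 in both libraries.

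Of 27 lists of nuclear-encoded genes, 7 had an interval below 0 in both libraries and 2 an interval above 0 in both, the nuclear long noncoding RNAs and the genes near CT010467.1. The lists were chosen with earlier results of these data known. Heat shock genes were the lowest of these 7, through the HSP90 genes, with log2 ratios of -0.73 (-0.88 to -0.60) in adherent and -0.73 (-0.91 to -0.56) in neurosphere barcodes. All 5 counted adherent and all 4 counted neurosphere members lay below 0, as did most counted genes of any kind (354 of 406 and 260 of 370). Without Hsp90ab1 and Hsp90aa1, left out after their values were seen, the list had -0.23 (-0.43 to -0.05) and -0.25 (-0.50 to 0.00), near the medians of -0.34 and -0.18 over all counted genes. Hsp90ab1, the constitutive cytosolic HSP90, was at 1689 and 4167 CPM in the adherent and 1642 and 3625 CPM in the neurosphere library, and was the only one of the 301 genes counted in both libraries to be over 2-fold lower in both. Hsp90aa1, the inducible HSP90, had log2 ratios of -0.92 and -0.99, and Hspa8, the constitutive HSP70, -0.39 and -0.20.

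Lists of the cytoplasm's structural and metabolic machinery are given beside all counted genes, of which 354 of 406 adherent and 260 of 370 neurosphere genes lay below 0, with median log2 ratios of -0.34 and -0.18. The cytoskeleton list had log2 ratios of -0.40 and -0.43, with 9 of 14 counted adherent and 10 of 11 counted neurosphere members below 0, and their medians were -0.26 and -0.25. Actb was at -0.49 and -0.85, Pfn1, the actin-binding profilin, at -0.85 and -0.54, while Tuba1b, an alpha-tubulin, was at 0.37 and 0.24. Proteasome and chaperonin genes had -0.44 and -0.27, with every counted member below 0 in both libraries (13 and 8 genes) and medians of -0.49 and -0.43. Glycolysis genes had -0.59 (-0.75 to -0.44) in the adherent library and -0.15 (-0.34 to 0.04) in the neurosphere library, and Gapdh, the glyceraldehyde-3-phosphate dehydrogenase gene, had -0.85 and -0.20. Polyadenylated histone genes had -0.47 and -0.43, including H2afz, a histone variant, at -0.57 and -0.60.

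Nuclear genes for mitochondrial proteins, which the selection did not use, took a somewhat smaller share in mitochondria-dominated barcodes. The nuclear-encoded respiratory chain took 3.23% of the remaining adherent UMIs against 4.23%, a log2 ratio of -0.39 (-0.45 to -0.33), with 41 of 43 counted members below 0. The neurosphere share was 2.89% against 3.39%, -0.23 (-0.30 to -0.16), with 26 of 33 below 0. These values sit near the medians over all counted genes, -0.34 and -0.18, of which 354 of 406 and 260 of 370 lay below 0. Atp5f1, an ATP synthase subunit, had -0.78 and -0.93, Cox5a, a cytochrome c oxidase subunit, -0.86 and -0.65, and Ndufa4 -0.71 and -0.55. Mitochondrial ribosomal proteins had -0.54 and -0.36, although the 2 counted neurosphere members lay above 0, and other mitochondrial proteins -0.38 and -0.40. Among the latter, Hspd1, the matrix chaperonin HSP60, was at 702 and 1120 CPM in adherent and 431 and 1010 CPM in neurosphere barcodes.

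The list of endoplasmic reticulum proteins had a log2 ratio of -0.03 (-0.15 to 0.08) in the adherent and -0.43 (-0.57 to -0.31) in the neurosphere library, a difference that was not tested. Of its counted members, 6 of 8 adherent and 9 of 10 neurosphere genes lay below 0, with medians of -0.20 and -0.55. Over all counted genes, 354 of 406 and 260 of 370 lay below 0, with medians of -0.34 and -0.18. The 2 adherent members above 0 were Hspa5 and Calr. Hspa5, the reticulum's HSP70 chaperone BiP, was at 802 and 479 CPM in adherent but 365 and 492 CPM in neurosphere barcodes. Calr, a calcium-binding chaperone, had 0.45 and 0.02, and Sec61b, a subunit of the protein channel, -0.50 and -0.29. Secreted and matrix proteins had 0.52 (0.35 to 0.68) in the adherent library, where Col11a1 gave 95 of 303 UMIs, and -0.03 in the neurosphere library. Integrated stress response genes (-0.17 and -0.02), apoptosis and p53 targets (-0.04 and -0.30), immediate early genes (-0.31 and -0.12) and G1/S genes (-0.19 and -0.10) had intervals that include 0 in both libraries. No member of these 4 lists was over 2-fold in either direction among the counted genes, of which there were at most 1 per list and library.

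Within the mitochondrial RNAs themselves, the composition was similar to that of comparison barcodes. Of the 13 mitochondrial messenger RNAs, mt-Co2 and mt-Atp6 were the most abundant in the adherent mitochondria-dominated barcodes (26.9% and 26.2% of mitochondrial UMIs) and mt-Atp6 and mt-Co2 in the neurosphere ones (32.2% and 19.2%). mt-Co1, a cytochrome c oxidase core subunit, took 14.6% against 17.4% in adherent and 8.67% against 10.5% in neurosphere barcodes. mt-Nd1, a complex I subunit, took 1.88% against 2.66% and 3.14% against 4.15%, log2 ratios of -0.50 and -0.40. mt-Nd6, whose messenger is transcribed from the opposite strand to the others, was the highest in both, with log2 ratios of 1.04 (0.82 to 1.25) and 0.70 (0.54 to 0.86) from 235 and 390 UMIs. That all 13 of these genes in the adherent and 10 in the neurosphere library had more UMIs per mitochondria-dominated than per comparison barcode is part of how the barcodes were chosen.

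The composition of the remaining RNA changed along the mitochondrial share and was not one profile. In the adherent library, nuclear long noncoding RNAs went from 0.237% of non-mitochondrial UMIs in barcodes under 5% mitochondrial to 1.38% at 10% to 20%, then down to 1.04% at 50% to 60% and 0.30% at 90% and over. Genes spanning at least 100 kb went from 4.30% to 20.1% at 20% to 50%, then to 11.8% and 5.54%. Ribosomal protein genes ran the other way, from 29.9% down to 15.0% at 10% to 20% and back to 28.2% at 90% and over. The adherent mitochondria-dominated barcodes with the highest mitochondrial share were therefore closest to the comparison barcodes in these 3 groups, with 22 barcodes and 1335 UMIs behind the last bin.

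The neurosphere library had a like course at a higher mitochondrial share. Nuclear long noncoding RNAs peaked at 1.65% of non-mitochondrial UMIs between 70% and 80% mitochondrial and fell to 0.440% at 90% and over, where 263 of the 478 barcodes lay. Genes of at least 100 kb were at 14.7% and 8.14% in these bins, and ribosomal protein genes at 14.8% and 20.0%. AI506816 did not share this course, at 1.10% and 1.19%. The 3 genes near CT010467.1 went from 0.0340% under 5% to 3.86% at 80% to 90% and 3.22% at 90% and over in the adherent library, and from 0.0219% to 1.21% at 90% and over in the neurosphere library. The median of non-mitochondrial UMIs fell along the same bins, to 51 UMIs in adherent and 63 UMIs in neurosphere barcodes at 90% and over, and its part in these changes was not tested.

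**Figure D4:**
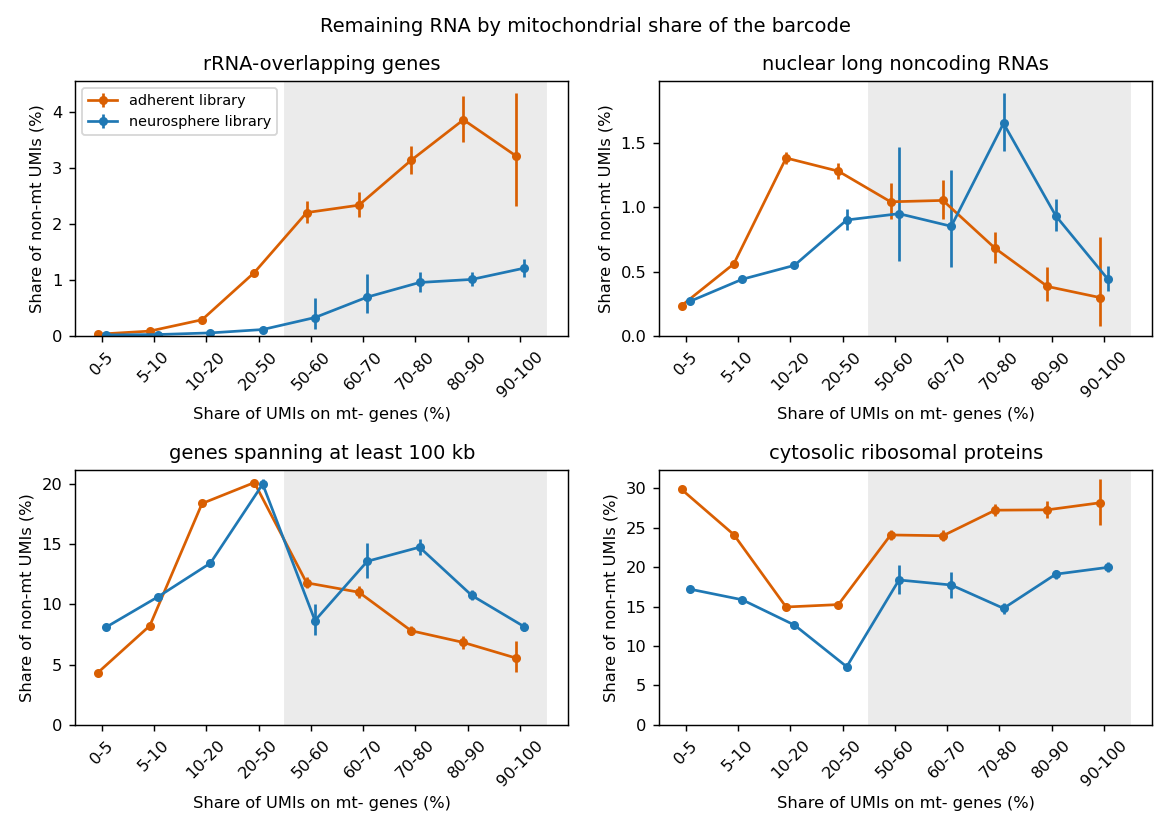
Share of non-mitochondrial UMIs (percent, with 95% Poisson intervals) of 4 gene groups in bins of mitochondrial share, adherent in orange and neurosphere in blue, with mitochondria-dominated bins shaded. The genes near CT010467.1 (titled rRNA-overlapping genes) were highest above 80%, while nuclear long noncoding RNAs and long genes peaked lower and ribosomal protein genes dipped there.

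The 2 libraries were alike in part. Of the 301 genes counted in both, 214 (71.1%) had a log2 ratio of the same sign, 27 higher and 187 lower in both. Another 71 were lower in adherent and higher in neurosphere mitochondria-dominated barcodes, and 16 the reverse. Most counted genes were lower in each library (354 of 406 and 260 of 370), so many shared signs would arise without any relation between libraries. The log2 ratios of the 2 libraries had a Pearson correlation of 0.53 and a Spearman correlation of 0.42 across the 301 genes, which are not independent replicates. Sf3b5, a splicing factor subunit, was furthest down of these genes in the adherent library at a log2 ratio of -1.77 and was at -0.18 in the neurosphere library. Mrpl33, a mitochondrial ribosomal protein, had -0.99 and 0.19, and Ybx1, an RNA-binding protein, -1.21 and -0.44.

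**Figure D5:**
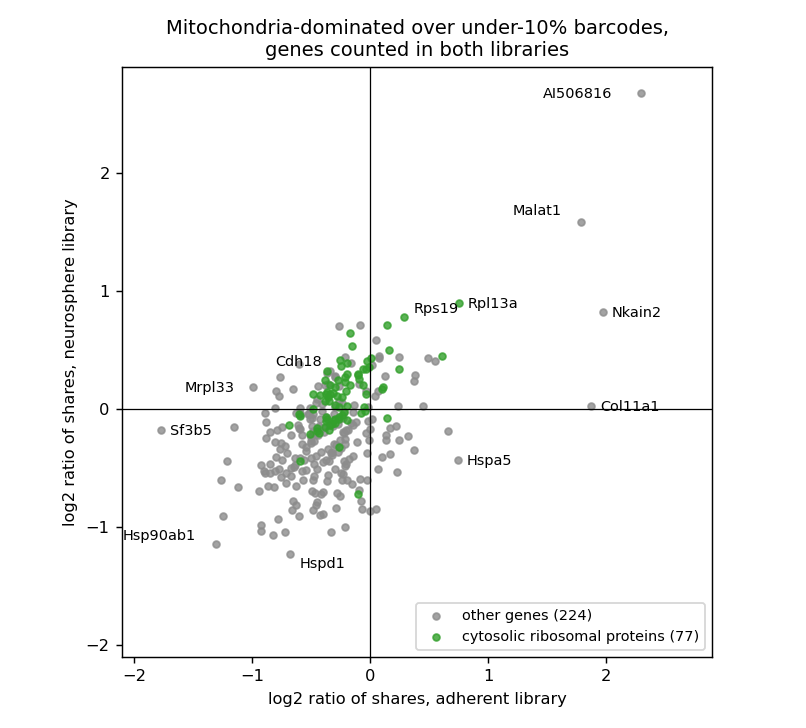
Log2 ratio of mitochondria-dominated over comparison barcodes in the adherent (x axis) and neurosphere (y axis) libraries for the 301 genes counted in both; ribosomal protein genes are green. AI506816 and Malat1 were over 2-fold higher in both, Hsp90ab1 was low in both, and many ribosomal protein genes lay left of 0 and above 0.

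Mitochondria-dominated barcodes were more like the comparison barcodes of their own culture than those of the other, with smaller differences between cultures for several genes. Across the same 301 genes, log2 shares of adherent mitochondria-dominated barcodes had a Pearson correlation of 0.94 with adherent and 0.79 with neurosphere comparison barcodes, and neurosphere ones 0.93 with their own and 0.80 with the adherent library's. All 55 genes that differed over 2-fold between the cultures in comparison barcodes differed in the same direction in mitochondria-dominated barcodes, 24 of them over 2-fold. Krt8, a keratin named for neurosphere cells in earlier results of these data, had 104 UMIs in neurosphere and 1 UMI in adherent mitochondria-dominated barcodes. Ptgds, prostaglandin D synthase, had 52 and 0 UMIs, and a count of 0 allows up to 42.9 CPM against the 862 CPM of the neurosphere barcodes. Lgals1, galectin-1, stood at 6056 CPM in the adherent and 2769 CPM in the neurosphere mitochondria-dominated barcodes, against 7447 and 2281 CPM in comparison barcodes. S100a4 had 15 adherent UMIs and 4 neurosphere UMIs, 215 and 66.3 CPM, against 242 and 2.94 CPM in comparison barcodes. For these 3 genes with UMIs in both libraries, the difference between cultures was smaller than in comparison barcodes. As a log2 ratio of neurosphere over adherent, it was -1.69 against -6.36 for S100a4, 6.91 against 9.83 for Krt8 and -1.13 against -1.71 for Lgals1. Barcodes without cells were not analysed here, and the part of free RNA in these values was not tested.

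Markers of other cell types were at or near 0. The 8 immune markers (among them Ptprc and Cd68) had 0 UMIs in the mitochondria-dominated barcodes of both libraries. The 6 red blood cell markers had 1 and 0 UMIs, and the 8 endothelial and fibroblast markers had 3 and 2 UMIs. Of the 9 glial and neural markers, 7 had a UMI in each library, with Vim, the intermediate filament vimentin, at 148 and 74 UMIs.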

How the data were processed

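UMIs were measured in 1 adherent and 1 neurosphere library. The authors deposited raw UMI counts of 32285 genes per barcode. The submitters' processing notes name Cell Ranger 7.0.1 and mm10, while the intron setting is not given in the sources used here. Each matrix is 1 sample, and 0 columns were left unmapped. The members and all 29 gene lists were chosen with earlier results of these data known. Replicates were absent, so no test was run.

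Counts were summed over barcodes and divided by the counts on genes not starting with mt- (13 genes do). Log2 ratios carry exact conditional 95% intervals, shares exact binomial ones and levels Poisson ones, for counting error only. A count of 0 was given a floor of 3 counts over the summed barcodes. A gene needed 25 expected counts in the mitochondria-dominated sum. The ratio and its interval were tested on simulated counts with known changes before use.

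The study's minimums on UMIs and genes per barcode were applied after removing 13 mitochondrial and 101 ribosomal genes. Doublets were not called. Thinning drew 200 UMIs per barcode without replacement.

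Genes were named by a rule: among genes counted in both libraries, the 10 highest and 10 lowest by the log2 ratio nearer 0 with the same sign in both, the 3 highest and 3 lowest by the difference between libraries, the 10 with most UMIs in each culture's mitochondria-dominated barcodes, and examples of lists. One gene named by this rule is not reported here. Genes over 2-fold in 1 library and those under the added minimum were named after their values were seen. Positions, spans and transcript sequences came from GENCODE vM21 on GRCm38, the build also called mm10, which matched 32235 gene identifiers. Python 3.11.15, numpy 2.4.6, scipy 1.17.1, pandas 2.3.3 and matplotlib 3.10.9 were used.

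Alternatives were member limits of 40% and 80%, the shallow comparison barcodes left out by the filter, ribosomal genes left out of the total, equal weight per barcode and a minimum of 10 expected counts. Thinning to 500 and 50 UMIs, a minimum on the mean of both shares, the nuclear RNAs without Malat1, the heat shock list without the HSP90 genes and the short genes without Gm42418 and AY036118 were also tried, all but the thinning to 500 chosen after seeing the data.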

Additional observations from a re-analysis of the deposited data

Results flagged for a closer look

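Examples are given here where the 2 cultures lay on opposite sides of 0 with counting intervals that did not reach 0. With 1 library each, the difference was not tested. The examples are not a full list. Whatever their intervals, 71 of the 301 genes counted in both libraries were lower in adherent and higher in neurosphere barcodes, and 16 the reverse. Ribosomal protein genes had a log2 ratio of -0.23 in adherent and 0.11 in neurosphere mitochondria-dominated barcodes, and Rps20 among them -0.19 and 0.39. The medians of the counted ribosomal protein genes, -0.26 and 0.12, and Rps20 lay above the medians of all counted genes, -0.34 and -0.18, in both libraries. Cdh18 had -0.76 and 0.27. Of lists taken from earlier results of these data, the 8 neurosphere genes had 1.41 in adherent barcodes, from 12 UMIs of which Mmp16 gave 10, and -0.33 in neurosphere barcodes. The 9 adherent genes had -0.24 in adherent and 0.30 in neurosphere barcodes, where Lgals1 gave 167 of 171 UMIs. In the other culture, 5 of the 8 neurosphere genes and 7 of the 9 adherent genes had 0 UMIs, so each list's value there rested mainly on 1 gene.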

How the results depend on the processing

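Of 66 alternative values, 16 stayed within the counting interval (for counts of genes, within a fixed factor), 50 moved further, and no log2 ratio among them changed sign. The balance of genes over 2-fold higher and lower (5 and 14 adherent, 2 and 11 neurosphere) did turn under some settings. With a limit of 80%, 109 adherent barcodes qualified, ribosomal protein genes had log2 ratios of -0.12 (adherent) and 0.20 (neurosphere), nuclear long noncoding RNAs 0.64 and 1.27, and the neurosphere respiratory chain -0.15, with 0 of 75 counted adherent genes over 2-fold higher, 0 lower and 4 of 254 neurosphere genes lower. At 40%, the adherent values were -0.31, 1.97 and -0.47, with 11 of 568 genes higher and 35 lower. Against the shallow comparison barcodes, ribosomal protein genes had -0.10 and 0.37, nuclear long noncoding RNAs 0.34 and 0.87 and the respiratory chain -0.33 and -0.15, with 13 of 372 adherent genes higher and 7 lower and 6 of 363 neurosphere genes higher and 25 lower. With equal weight per barcode these 3 groups had -0.17 and 0.26, 1.31 and 0.81, and -0.32 and -0.073. Without Malat1, nuclear long noncoding RNAs had 2.00 and 1.86. Without ribosomal genes in the total, the adherent respiratory chain had -0.48 and 23 of 350 adherent genes were lower. A minimum of 10 expected UMIs gave 18 higher and 100 lower of 990 adherent and 14 higher and 76 lower of 1070 neurosphere genes, and the minimum on the mean of both shares gave 23 and 6 of 388, and 10 and 5 of 351. Other limits and minimums count fewer or more genes by construction, and the cause of the remaining shifts was not tested.

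No paired analysis was possible because each culture has 1 library. Depth limits single barcodes most: thinned to 500 UMIs, 11 mitochondria-dominated barcodes remained per library, with Malat1 in 81.8% and 72.7% of them. Thinned to 50 UMIs, Malat1 was in 24.0% and 18.0% of them, against 11.3% and 12.4% of comparison barcodes and 18.9% (11.9% to 27.6%) and 14.6% (9.26% to 21.4%) of the shallow ones, whose intervals overlap those of the mitochondria-dominated barcodes (19.6% to 29.0% and 14.4% to 22.2%).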
